A study of Mus musculus with 4 samples.

Results

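The genes described here are 9 tandem copies of *Tmem181*, *Dynlt1* and *Rnaset2* on proximal mouse chromosome 17, among 26433 genes counted in E15 telencephalic tissue. They comprise 3 copies of *Tmem181*, 4 copies of *Dynlt1* and 2 copies of *Rnaset2*. They were selected on measured values, namely the read counts of the same cKI f/+ against WT comparison given below, together with gene name and position. Their differences between genotypes are therefore given as a description. The copies were part of the fit over all genes, but nothing is read from whether a copy passed its threshold. *Tmem181* encodes a membrane protein that spans the bilayer several times and is known as a host factor for a bacterial toxin. *Dynlt1* encodes Tctex-1, a light chain that links cargo to cytoplasmic dynein and that also binds the exchange factor Lfc in neural progenitors of the developing cortex. *Rnaset2* encodes an acid ribonuclease of the lysosome, and loss of the human enzyme causes a leukoencephalopathy of early childhood.

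The study asked how human SERPINA3 acts in cortical progenitors. Bulk RNA sequencing gave 2 cKI f/+ libraries (KI2 and KI3) and 2 WT libraries (WT1 and WT3), each of E15 tissue. The cKI f/+ embryos carried a single *Rosa26* allele in which the CAG promoter drives 3×flag-tagged human SERPINA3 once Nestin-Cre has removed a floxed stop cassette, so that expression is limited to Nestin-positive cells and their descendants. WT embryos were littermates, and the labels give the strain as C57BL/6 for both groups. According to the methods, the edited founders were bred with B6D2F2 mice before the cross to Nestin-Cre. Whether WT embryos carried Cre is not given in the sources used here. The methods define replicates in mouse experiments as separate embryos, without naming these libraries. The library totals were 17736663 (KI2), 18119444 (KI3), 17615212 (WT1) and 17423512 (WT3) counts. Levels are given as CPM, the counts scaled to these library totals, and 3 counts correspond to 0.166 to 0.172 CPM. Intervals and this floor cover counting error only.

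The libraries differed by genotype and also in sex-linked RNA. *Xist*, which is transcribed from the inactive X chromosome, had 13223 and 11882 counts in KI2 and KI3 against 5 counts in each WT library. *Ddx3y*, on the Y chromosome, was at 0 counts in KI2 and KI3 and reached 364 and 393 counts in WT1 and WT3. Sex and genotype therefore cannot be told apart in any value below. The telencephalic markers *Emx1*, *Pax6*, *Sox2*, *Eomes*, *Tbr1* and *Neurod2* were all detected in every library, with a summed level between 2077 and 2215 CPM. They did not move together. *Emx1* (172 and 213 against 165 and 171 CPM) and *Eomes* (348 and 347 against 340 and 318) were higher in both cKI f/+ libraries. *Tbr1* (465 and 442 against 558 and 478) and *Neurod2* (819 and 795 against 856 and 835) were lower in both, while *Pax6* and *Sox2* overlapped. The 3 choroid plexus markers summed to 7.39 and 57.1 CPM in the cKI f/+ libraries KI2 and KI3 against 0.227 and 1.55 CPM in WT. By the mean over the 4 libraries *Ttr* was the most abundant of them, with 116 and 956 counts in the cKI f/+ libraries against 0 and 4 in WT1 and WT3, while *Folr1* (9 and 20 against 3 and 16) and *Kcne2* (6 and 59 against 1 and 7) overlapped between genotypes. The 4 meningeal markers summed to 14.5 and 12.6 CPM in the cKI f/+ libraries against 5.90 and 7.29 in WT. *Col1a2*, the most abundant by the mean over the 4 libraries, had 99 and 57 counts against 30 and 28, and *Foxc1* had 26 and 38 counts against 53 and 35, so that *Foxc1* overlapped while *Col1a1*, *Col1a2* and *Dcn* were higher in both cKI f/+ libraries. The 4 microglial markers, led by *Csf1r*, summed to 18.7 and 20.5 CPM against 24.2 and 24.2. *Csf1r* (181 and 198 counts against 209 and 202), *C1qb* (59 and 60 against 79 and 73) and *Cx3cr1* (73 and 95 against 119 and 131) were lower in both cKI f/+ libraries, while *Aif1* overlapped. The 4 blood markers, led by *Hba-a1*, summed to 260 and 173 CPM against 227 and 255. *Hba-a1* and *Hba-x* overlapped between genotypes, while *Alas2* had 132 and 101 counts in the cKI f/+ libraries against 177 and 163 in WT and *Hbb-bt* had 951 and 693 against 955 and 1313. The 4 ventral telencephalic markers, led by *Dlx1*, summed to 124 and 144 CPM against 142 and 181. They did not move together, since *Nkx2-1* had 19 and 17 counts in the cKI f/+ libraries against 6 and 3 in WT, while *Dlx2* had 437 and 609 against 679 and 862 and *Gsx2* had 2 and 28 against 29 and 40. The 3 endothelial markers, led by *Cldn5*, summed to 55.4 and 63.1 CPM against 62.2 and 56.9. The part of dissection and cell composition in the values below was not tested. In bulk tissue, fewer cells expressing a copy and less RNA per cell cannot be told apart.

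The 9 copies lie within 1877.6 kb. In the positions of the table, which are those of GRCm38, they run from chr17:6270470 to chr17:8148097. The *Tmem181* and *Dynlt1* copies are interspersed within the first 385.5 kb. From the centromeric side the order is *Tmem181a* (ENSMUSG00000038141, plus strand, from 6270470 to 6308314), *Dynlt1a* (ENSMUSG00000092074, minus, from 6310547 to 6317474) and *Dynlt1b* (ENSMUSG00000096255, plus, from 6430112 to 6436293). *Tmem181b-ps* (ENSMUSG00000096780, minus, from 6438524 to 6467022), *Dynlt1c* (ENSMUSG00000000579, plus, from 6601671 to 6609774), *Tmem181c-ps* (ENSMUSG00000093880, minus, from 6612952 to 6632485) and *Dynlt1f* (ENSMUSG00000095677, minus, from 6648941 to 6655939) follow. *Rnaset2b* (ENSMUSG00000094724, plus, from 6978860 to 7011299) and *Rnaset2a* (ENSMUSG00000095687, minus, from 8128610 to 8148097) lie 1117.3 kb apart on opposite strands. *Tmem181b-ps* is annotated as a transcribed unprocessed pseudogene, *Tmem181c-ps* as an unprocessed pseudogene, and the other 7 copies as protein coding. The gene *Gm26848* overlaps the spans of *Dynlt1a* and *Tmem181b-ps* on the opposite strand and that of *Dynlt1b* on the same strand. Overlap of exons was not examined, so whether this affected their counts was not tested. *Gm26848* itself had 12, 14, 18 and 6 counts in KI2, KI3, WT1 and WT3. These counts do not limit how many reads the overlap may have affected, since whether the counting used strand is not given.

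The copies were close to identical in coding sequence, which bears on how reads could be divided among them. In the GENCODE M21 transcripts, the 777 coding bases of *Rnaset2a* and *Rnaset2b* differed at 0 positions. The 339 coding bases of *Dynlt1a*, *Dynlt1c* and *Dynlt1f* also differed at 0 positions, and *Dynlt1b* differed from each of them at 1. A read that lies wholly inside these coding sequences therefore cannot be assigned to *Rnaset2a* or *Rnaset2b*, and the assignment of reads to single *Dynlt1* copies is likewise uncertain. The first 60 coding bases of *Dynlt1a* and *Dynlt1b* are shown because they hold the only coding base that sets *Dynlt1b* apart, which is in capitals.
Dynlt1a: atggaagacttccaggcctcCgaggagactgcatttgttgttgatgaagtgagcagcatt
Dynlt1b: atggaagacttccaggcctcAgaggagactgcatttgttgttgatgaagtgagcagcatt

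The pseudogenes had also kept most of the coding sequence of *Tmem181a*. Over 1338 aligned bases of its 1422 coding bases, *Tmem181c-ps* differed at 9 (99.3% identity), with 48 bases in gaps. *Tmem181b-ps* differed from *Tmem181a* at 7 of 1412 aligned bases (99.5% identity), with 2 bases in gaps. The stretch from coding base 25 to 84 of *Tmem181a*, counted from the A of its start codon, is shown with the aligned stretches of both pseudogenes because it is the first stretch of 60 bases with the most variable positions, which are in capitals.
Tmem181a: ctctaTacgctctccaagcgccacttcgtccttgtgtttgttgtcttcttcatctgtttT
Tmem181b-ps: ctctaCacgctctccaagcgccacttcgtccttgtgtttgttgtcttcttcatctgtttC
Tmem181c-ps: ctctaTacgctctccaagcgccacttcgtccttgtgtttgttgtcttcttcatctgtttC

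All annotated exons, and not only the coding ones, were then compared as words of 50 bases. A differing base changes every word that spans it, so shares of words are not on the scale of the identities above. Only 11.1% of the words of *Dynlt1c*, 11.4% of *Dynlt1f*, 16.8% of *Dynlt1b*, 21.1% of *Rnaset2a*, 27.7% of *Tmem181c-ps* and 29.5% of *Dynlt1a* occurred in no other annotated gene. The shares were 42.8% for *Rnaset2b*, 49.2% for *Tmem181b-ps* and 65.6% for *Tmem181a*. The RefSeq promoter table (GRCm38.p6) holds 7 windows for 5 of the 9 copies. The windows of *Rnaset2b* (from 6978610 to 6978909) and *Rnaset2a* (from 8147738 to 8148037) differed at 1 of 255 overlapping bases, and those of *Dynlt1c* (from 6601529 to 6601828) and *Dynlt1f* (from 6655890 to 6656189) at 3 of 192. The second window of *Rnaset2a* (from 8148197 to 8148496) had no close match in that of *Rnaset2b*, with 28 of 50 bases different in the best overlap.

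Of the 9 copies, 1 was called differentially expressed between cKI f/+ and WT (*Tmem181c-ps*), against 0.120% of the 15786 genes tested, by edgeR's quasi-likelihood test at a Benjamini-Hochberg adjusted p under 0.05. Nothing is read from that count, because the copies were chosen by the same contrast. All 9 copies passed the filter on low counts, but *Tmem181c-ps* would not have passed it on its WT libraries alone, where it had 13 and 5 counts. The libraries of the genotypes did not overlap for 8 of the 9 copies, against 33.9% of tested genes. For 3 of them both cKI f/+ libraries were higher (16.0% of tested genes), and for 5 both were lower (18.0% of tested genes). Each family held copies on both sides: *Tmem181c-ps*, *Dynlt1c* and *Rnaset2a* were higher in cKI f/+ tissue, while *Tmem181a*, *Tmem181b-ps*, *Dynlt1a*, *Dynlt1b* and *Rnaset2b* were lower. *Dynlt1f* overlapped.

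**Figure D1:**
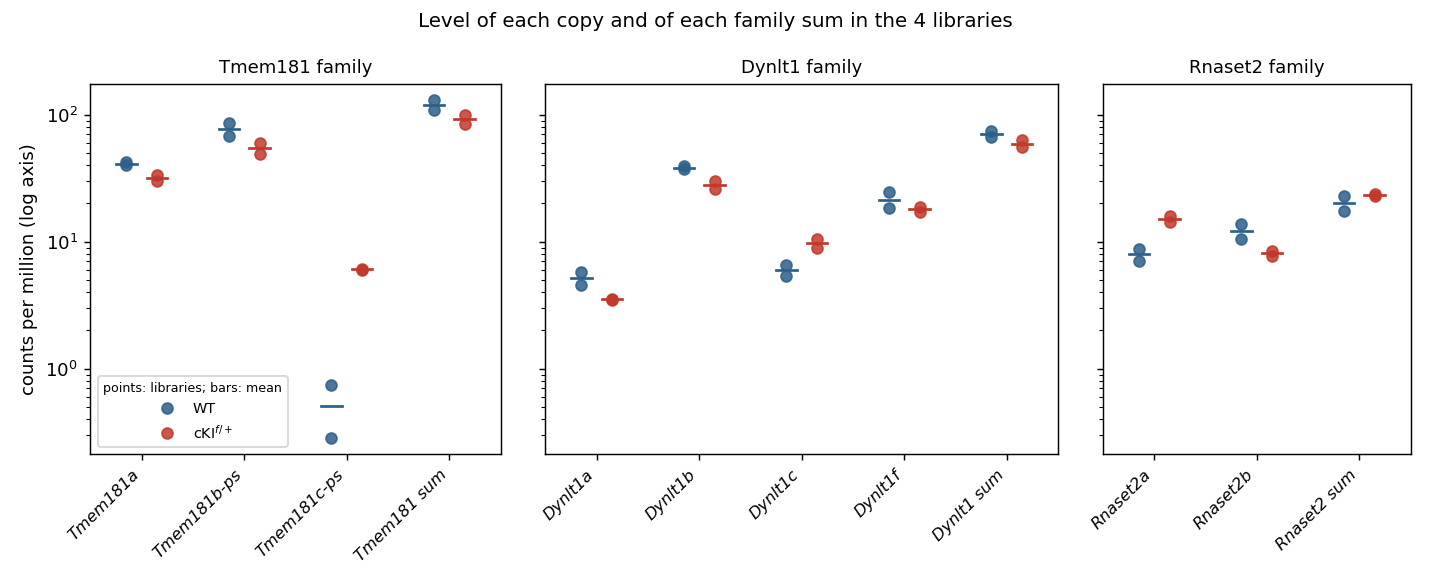
Level of each copy and of each family sum in CPM on a log axis, with 1 point per library and a bar at the mean of each genotype (n = 2). *Tmem181c-ps*, *Dynlt1c* and *Rnaset2a* are higher in cKI f/+ tissue while the other copies are lower or overlap.

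The membrane protein family was carried mostly by *Tmem181a* and *Tmem181b-ps*. *Tmem181a*, the copy with an intact reading frame, had 597, 546, 743 and 695 counts in KI2, KI3, WT1 and WT3, or 33.7, 30.1, 42.2 and 39.9 CPM. Both cKI f/+ libraries were below both WT libraries, with means of 31.9 ± 2.49 and 41.0 ± 1.62 CPM (SD, n = 2 each). *Tmem181b-ps* had 1068, 884, 1525 and 1188 counts in KI2, KI3, WT1 and WT3, or 60.2, 48.8, 86.6 and 68.2 CPM. Here too the genotypes did not overlap, although WT1 stood further from WT3 than WT3 stood from KI2, and the log2 fold change was -0.50 ± 0.13 (SE, n = 2 each) against -0.36 ± 0.10 for *Tmem181a*.

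*Tmem181c-ps* had 109 counts in each cKI f/+ library and 13 and 5 counts in WT1 and WT3, or 6.15 and 6.02 CPM against 0.738 and 0.287 CPM. The cKI f/+ libraries were nearly equal, the WT libraries were close to the floor, and the mean CPM was 11.9-fold higher in cKI f/+ tissue. On the log2 scale of the fit the difference was 3.55 ± 0.36 (SE, n = 2 each). Because the WT counts are so low, this value depends on the few reads of a single WT library, and it was 3.04 without WT3 and 4.38 without WT1. Its share of the family's reads was 6.14% in KI2 (95% exact binomial interval 5.07 to 7.36%) and 7.08% in KI3 (5.85 to 8.48%), against 0.570% in WT1 (0.304 to 0.973%) and 0.265% in WT3 (0.086 to 0.617%). *Tmem181a* took 33.7, 35.5, 32.6 and 36.8% of the family's reads in KI2, KI3, WT1 and WT3, so that its share overlapped between genotypes. The share of *Tmem181b-ps* was lower in both cKI f/+ libraries, at 60.2 and 57.4% against 66.9 and 62.9% in WT1 and WT3.

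The summed *Tmem181* counts were 1774, 1539, 2281 and 1888 in KI2, KI3, WT1 and WT3, or 100.02, 84.9, 129 and 108 CPM. The genotypes did not overlap, and the log2 fold change of the sum was -0.36 ± 0.11 (SE, n = 2 each), the value of *Tmem181a* itself to 2 decimals. *Tmem181c-ps* made up at most 7.08% of the sum in any library.

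The dynein light chain copies differed in direction. *Dynlt1b* had 463, 546, 656 and 688 counts in KI2, KI3, WT1 and WT3, or 26.1, 30.1, 37.2 and 39.5 CPM. Both cKI f/+ libraries were below both WT libraries, and the log2 fold change was -0.44 ± 0.11 (SE, n = 2 each). *Dynlt1a* had 62, 64, 81 and 101 counts in the same order, or 3.50, 3.53, 4.598 and 5.80 CPM, again lower in both cKI f/+ libraries, with a log2 fold change of -0.56 ± 0.22. *Dynlt1f* had 302, 342, 323 and 427 counts, or 17.03, 18.9, 18.3 and 24.5 CPM. Its genotypes overlapped, since KI3 was above WT1, and its log2 fold change of -0.25 ± 0.15 came close to 0 without WT3 (-0.023).

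*Dynlt1c* went the other way, with 159, 191, 116 and 93 counts in KI2, KI3, WT1 and WT3, or 8.96, 10.5, 6.59 and 5.34 CPM. Both cKI f/+ libraries were above both WT libraries, and the log2 fold change was 0.71 ± 0.19 (SE, n = 2 each). Its share of the *Dynlt1* reads was 16.1% in KI2 (95% exact binomial interval 13.9 to 18.6%) and 16.7% in KI3 (14.6 to 19.0%), against 9.86% in WT1 (8.22 to 11.7%) and 7.10% in WT3 (5.77 to 8.63%). The share of *Dynlt1b* was lower in the cKI f/+ libraries, at 47.0 and 47.8% against 55.8 and 52.6%. That of *Dynlt1a* was lower in both as well, at 6.29 and 5.60% against 6.89 and 7.72%. The share of *Dynlt1f* overlapped, at 30.6 and 29.9% against 27.5 and 32.6%.

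The summed *Dynlt1* counts were 986, 1143, 1176 and 1309 in KI2, KI3, WT1 and WT3, or 55.6, 63.1, 66.8 and 75.1 CPM. The genotypes did not overlap, but the gap between KI3 and WT1 was smaller than the gap between the libraries of either genotype, and the log2 fold change was -0.25 ± 0.10 (SE, n = 2 each). A further copy, the processed pseudogene *Dynlt1-ps1* on chromosome 6 (from 135349408 to 135349749), was the only other gene of the table that shared at least 50% of its 31-base words with a copy described here, and it shared 100% of them with *Dynlt1f*. It had 1064, 987, 1003 and 1101 counts in KI2, KI3, WT1 and WT3, similar in number to the 4 chromosome 17 copies together, and its genotypes overlapped. With its reads added, the log2 fold change of the *Dynlt1* sum was -0.16.

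The lysosomal ribonuclease copies differed in direction. *Rnaset2a* had 284, 259, 124 and 154 counts in KI2, KI3, WT1 and WT3, or 16.0, 14.3, 7.04 and 8.84 CPM. Both cKI f/+ libraries were well above both WT libraries, and the log2 fold change was 0.94 ± 0.17 (SE, n = 2 each). *Rnaset2b* had 137, 153, 184 and 242 counts, or 7.72, 8.44, 10.4 and 13.9 CPM, lower in both cKI f/+ libraries, with a log2 fold change of -0.58 ± 0.18. *Rnaset2a* took 67.5% of the reads of the pair in KI2 (95% exact binomial interval 62.8 to 71.9%) and 62.9% in KI3 (58.0 to 67.5%), against 40.3% in WT1 (34.7 to 46.0%) and 38.9% in WT3 (34.1 to 43.9%). *Rnaset2a* thus held the larger part of the counts in the cKI f/+ libraries and the smaller part in the WT libraries. Per kb of sequence found in no other gene, *Rnaset2a* was above *Rnaset2b* in all 4 libraries, at 23.0, 20.6, 10.1 and 12.7 against 3.98, 4.35, 5.38 and 7.15 CPM per kb in KI2, KI3, WT1 and WT3. The order in WT depended on the bases counted. Per kb of all exonic bases the mean of *Rnaset2a* was above that of *Rnaset2b* in cKI f/+ (4.53 against 1.82) and below it in WT (2.38 against 2.73).

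The summed *Rnaset2* counts were 421, 412, 308 and 396 in KI2, KI3, WT1 and WT3, or 23.74, 22.74, 17.48 and 22.73 CPM. KI3 and WT3 were practically equal and WT1 was the low library. The log2 fold change of the sum was 0.21 ± 0.14 (SE, n = 2 each), and it was 0.0375 without WT1 and 0.42 without WT3. It was smaller in size than that of either copy.

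**Figure D2:**
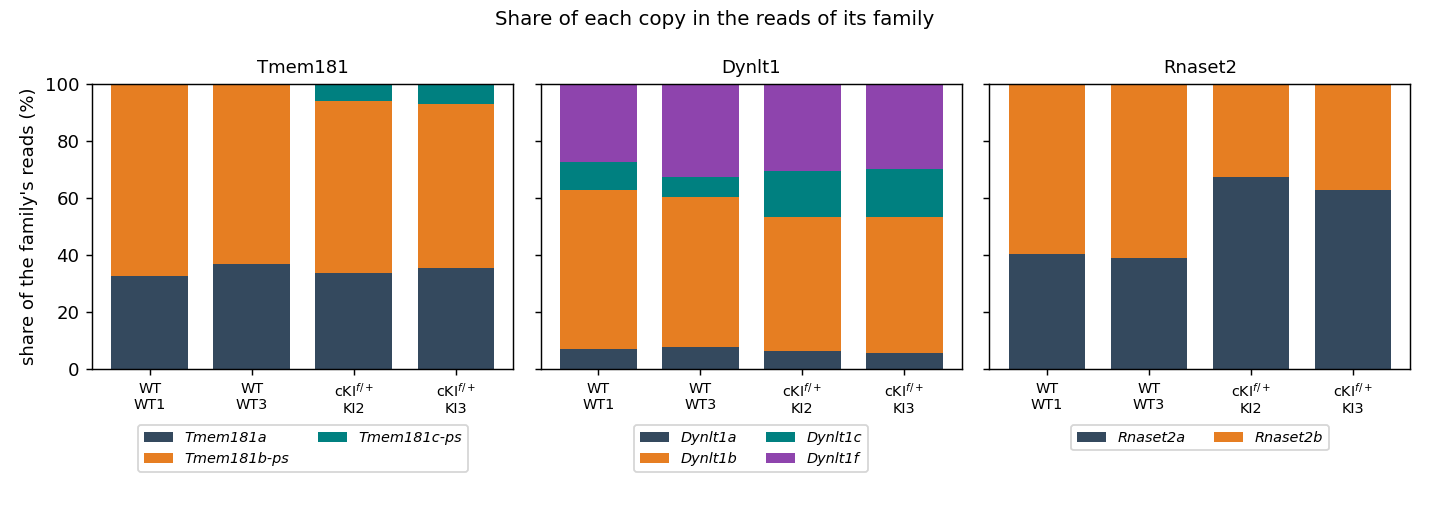
Share of each copy in the reads of its family, in percent, as stacked bars with 1 bar per library. *Tmem181c-ps* takes 6.14 and 7.08% in the cKI f/+ libraries, *Dynlt1c* 16.1 and 16.7% and *Rnaset2a* 67.5 and 62.9%, and each of these shares is higher than in both WT libraries.

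To set the levels of copies side by side, CPM were divided by the kb of annotated exon start positions whose 50-base word is found in no other gene. *Dynlt1b* was first in both genotypes, at 232 ± 23.5 CPM per kb in cKI f/+ and 317 ± 13.1 in WT libraries (SD, n = 2 each), a value that rests on 121 such positions. *Dynlt1f* followed at 42.8 ± 3.12 and 51.1 ± 10.4 CPM per kb, and *Tmem181b-ps* at 26.2 ± 3.88 and 37.2 ± 6.25. In cKI f/+ libraries the next were *Dynlt1c* at 23.1 ± 2.64, *Rnaset2a* at 21.8 ± 1.75 and *Tmem181c-ps* at 16.4 ± 0.25 CPM per kb. There the libraries of *Tmem181b-ps* overlapped those of *Dynlt1c*, and those of *Dynlt1c* overlapped those of *Rnaset2a*. *Tmem181a* at 7.32 ± 0.57, *Rnaset2b* at 4.16 ± 0.26 and *Dynlt1a* at 2.74 ± 0.02 CPM per kb came last. In WT libraries *Dynlt1c* at 14.1 ± 2.09 and *Rnaset2a* at 11.4 ± 1.83 CPM per kb overlapped, and *Tmem181a* at 9.42 ± 0.37, *Rnaset2b* at 6.26 ± 1.25 and *Dynlt1a* at 4.05 ± 0.66 came next. *Tmem181c-ps* was last in WT, at 1.39 ± 0.86 CPM per kb. It was thus above *Tmem181a* in both cKI f/+ libraries and below it in both WT libraries.

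Divided by all exonic bases instead, *Dynlt1b* was still first, at 36.5 CPM per kb in cKI f/+ and 49.8 in WT libraries, followed by *Tmem181b-ps* at 13.0 and 18.5. On that scale *Tmem181c-ps* was below *Tmem181a* in both genotypes, at 4.39 against 4.87 CPM per kb in cKI f/+ and 0.37 against 6.27 in WT libraries, and *Rnaset2a* was above *Rnaset2b* in cKI f/+ libraries (4.53 against 1.82) but below it in WT (2.38 against 2.73). With words of 100 bases in place of 50, the mean over the 4 libraries was 24.1 in place of 47.0 CPM per kb for *Dynlt1f* and 23.1 in place of 31.7 for *Tmem181b-ps*, which brought these copies close together. It was 10.6 in place of 18.6 CPM per kb for *Dynlt1c*, 10.5 in place of 16.6 for *Rnaset2a*, 5.31 in place of 8.91 for *Tmem181c-ps* and 2.17 in place of 3.39 for *Dynlt1a*. These means pool both genotypes and give no order of the copies within either genotype. The levels per kb, and the order of several copies, therefore depend on which bases are taken as countable.

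The genes around the copies were compared in the same fit. The table holds 41 other genes on chromosome 17 within 2 Mb of the copies, 26 of them were tested, and 0 were called by edgeR at an adjusted p under 0.05 or by DESeq2, with 2 at an unadjusted p under 0.05. Over all tested genes, 0.120% were called and 4.60% had an unadjusted p under 0.05, and nothing particular to the neighbours is read from these counts. The median log2 fold change of the neighbours was -0.03, against 0.00 over all tested genes. Of the 5 nearest tested genes on the centromeric side, *Tulp4*, *Gtf2h5*, *Serac1* and *Synj2* had log2 fold changes between -0.19 and 0.02. The exception was *Gm15590*, a processed pseudogene, with 20 and 42 counts in KI2 and KI3 against 9 and 7 in WT1 and WT3, and a log2 fold change of 1.91 ± 0.49 (SE, n = 2 each; adjusted p = 0.681, edgeR). On the other side, *Fgfr1op*, *Mpc1*, *Sft2d1*, *Prr18* and *Gm16702* had values between -0.34 and 0.16.

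Among the copies lie 15 other genes, of which 9 were tested. These include 2 further pairs of duplicated genes, singled out after their values were seen. *Tagap*, which encodes a GTPase-activating protein of T cells, shares 54.9% of its 31-base words with *Tagap1*. *Tagap* had 32, 39, 6 and 8 counts in KI2, KI3, WT1 and WT3, so that both cKI f/+ libraries were above both WT libraries, with a log2 fold change of 2.29 ± 0.41 (SE, n = 2 each) that missed the threshold (adjusted p = 0.169, edgeR). *Tagap1*, next to *Rnaset2b*, had 532, 589, 561 and 590 counts and its genotypes overlapped. *Rsph3a* and *Rsph3b*, radial spoke genes of motile cilia that share 59.4% of the words of *Rsph3a*, had log2 fold changes of -0.03 ± 0.17 and -0.26 ± 0.25 and overlapped as well. *Ezr*, the gene of the membrane linker ezrin between *Dynlt1f* and *Rnaset2b*, had 217, 220, 237 and 224 CPM and a log2 fold change of -0.07 ± 0.08.

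**Figure D3:**
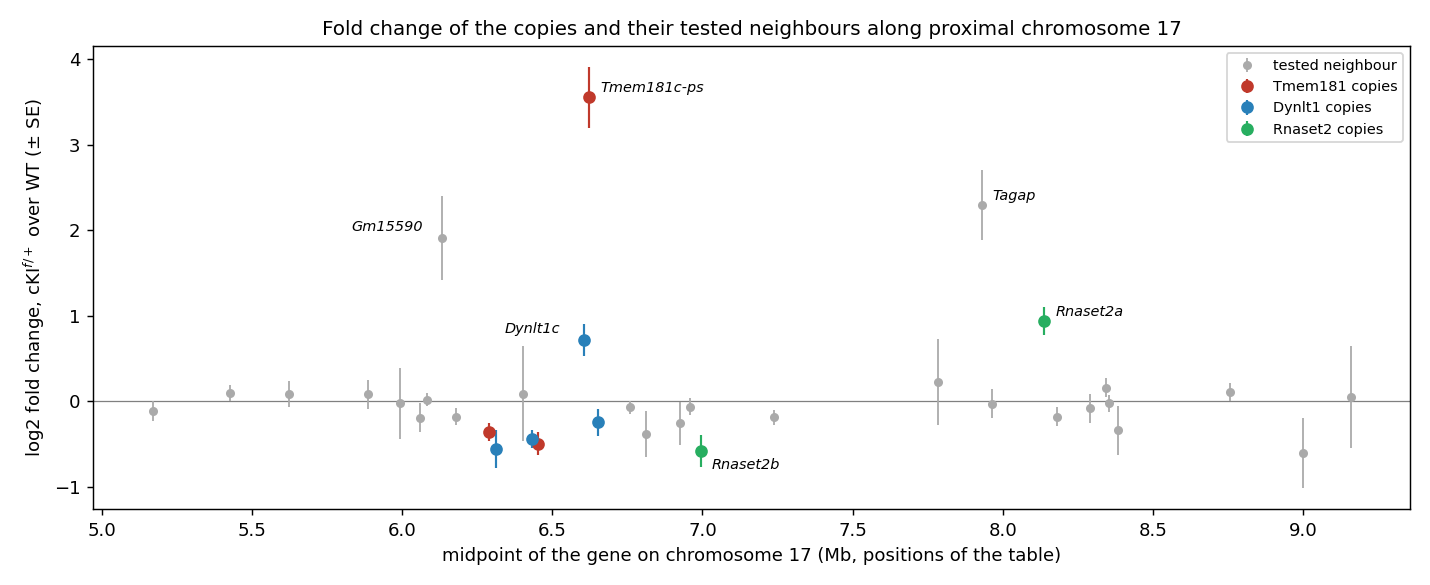
Log2 fold change of cKI f/+ over WT with its standard error (vertical lines) against the midpoint of each gene on chromosome 17 in Mb, for the 9 copies in colour and the 26 tested neighbours in grey. *Tmem181c-ps*, *Dynlt1c* and *Rnaset2a* lie above 0 with *Gm15590* and *Tagap*, while most neighbours lie close to 0.

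Genes of dynein and its partners, relatives of *Dynlt1* and *Tmem181*, and other lysosomal genes were counted against the same background (0.120% called, 4.60% at an unadjusted p under 0.05). At that background few or no calls fall in a short list. Of the 22 genes of cytoplasmic dynein, dynactin and their partners, 21 were tested and 0 were called by edgeR or DESeq2, with 0 at an unadjusted p under 0.05. Their log2 fold changes ran from -0.15 to 0.13, with a median of 0.01. *Dync1h1*, the motor heavy chain, had 739, 644, 745 and 585 CPM in KI2, KI3, WT1 and WT3, and *Dctn1*, the large dynactin subunit, had 411, 401, 395 and 403 CPM, both overlapping between genotypes. *Arhgef2*, which encodes Lfc, had a log2 fold change of 0.03 ± 0.09 (SE, n = 2 each).

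Of the 5 other Tctex-type light chains, 2 were tested and 0 were called by edgeR or DESeq2, with 0 at an unadjusted p under 0.05. *Dynlt3* had 282, 247, 274 and 281 counts and *Tctex1d2* had 260, 272, 255 and 192 counts in KI2, KI3, WT1 and WT3, with log2 fold changes of -0.10 ± 0.14 and 0.22 ± 0.16. Of the 21 lysosomal genes all were tested and 0 were called by edgeR or DESeq2, with 0 at an unadjusted p under 0.05, and the median log2 fold change was 0.01, from -0.19 to 0.14. *Ctsb*, a cysteine protease, and *Npc2*, a cholesterol carrier, had the most counts of that list, with log2 fold changes of 0.04 ± 0.08 and 0.08 ± 0.08. Of the 7 relatives of *Tmem181* with a GOLD domain all were tested and 0 were called by edgeR or DESeq2, with 0 at an unadjusted p under 0.05 and a median of 0.04. The most abundant of them were *Gpr107*, at 0.04 ± 0.08, and *Tmem145*, at 0.12 ± 0.11 on the log2 scale.

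The genes nearest in pattern were sought for 2 of the copies. By Euclidean distance of log2 CPM centred over the 4 libraries, the 5 tested genes nearest to *Tmem181c-ps* were *Gm17518*, *Fmod*, *Hist1h2bj*, *Matn4* and *Plcxd1*, at distances from 0.65 to 1.24. They lie on other chromosomes and are rare transcripts, with at most 28 counts in any library. The 5 nearest to *Tmem181a* were *Slc38a5*, *Rsbn1l*, *Pear1*, *Gm21092* and *Unc5d*, at distances from 0.02 to 0.06, with log2 fold changes from -0.38 to -0.31. With 4 libraries, this nearness is given as a description only.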

How the data were processed

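Per the labels, RNA of E15 telencephalic tissue was sequenced from cKI f/+ and WT mice, and the authors deposited the raw number of reads on each gene (counts), not normalized. The submitters' processing notes name Bowtie2 2.2.3, TopHat2 2.0.12, HTSeq 0.6.0 and the build mm9, while 92.8% of the 26378 genes with an identifier in GENCODE M21 have the position they have there (GRCm38). How reads that match several copies were counted, and whether strand was used, are not given in the sources used here. The deposited table also holds the authors' mean normalized signal, fold change (both the ratio and its log2), p-value and adjusted p-value, and a mark of significance, none of which was used. The numbers in the library names (KI2, KI3, WT1 and WT3) do not all occur in the sample titles, so libraries were tied to a genotype by name and not to single labelled samples.

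The 9 copies and the gene lists were chosen with earlier results of these data known. edgeR 4.0.16 in R 4.3.3 kept 15786 of 26433 genes with its default filter, scaled them by TMM and fitted the quasi-likelihood model over all of them, and p-values were adjusted by Benjamini-Hochberg over these genes (threshold 0.05). The standard error is the log2 fold change divided by the square root of F. For the family sums, the rows of the copies were replaced by summed counts and the fit was repeated. Replicates differed beyond sampling noise (chi-square over degrees of freedom 5.63 for KI2 with KI3 and 7.49 for WT1 with WT3). Words were counted on both strands of all GENCODE M21 transcripts, and coding sequences were aligned with MAFFT 7.526. Named genes were the 9 copies, the 5 nearest tested neighbours on each side, called genes and the 2 with the most counts in each pathway list, the 5 genes nearest in pattern to *Tmem181c-ps* and to *Tmem181a*, other copies by sequence, *Xist* and *Ddx3y*, beside the listed cell type markers. *Arhgef2*, *Ezr*, *Gm26848*, *Tagap*, *Tagap1*, *Rsph3a* and *Rsph3b* were added after their values were seen. The steps were tested on simulated data. A further listed marker of the tissue is not reported here. Alternatives were DESeq2 1.42.0, other normalizations and filters, removal of chromosomes X and Y, another prior count, other lengths, and each library left out in turn.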

Additional observations from a re-analysis of the deposited data

How the results depend on the processing

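The sign of the log2 fold change of every copy and every family sum was the same under all alternatives run, namely RLE, upper quartile and library size normalization, DESeq2, the filters on low counts, removal of chromosomes X and Y, a prior count of 2 and each library left out. *Tmem181c-ps* has no value with at least 10 counts required in every library. With each library left out in turn, log2 fold changes ran from -0.46 to -0.28 for *Tmem181a*, from -0.68 to -0.32 for *Tmem181b-ps*, from 3.04 to 4.38 for *Tmem181c-ps*, from -0.72 to -0.38 for *Dynlt1a*, from -0.55 to -0.36 for *Dynlt1b*, from 0.57 to 0.87 for *Dynlt1c*, from -0.44 to -0.023 for *Dynlt1f*, from 0.78 to 1.11 for *Rnaset2a* and from -0.77 to -0.36 for *Rnaset2b*. For the sums they ran from -0.50 to -0.22 for *Tmem181*, from -0.35 to -0.16 for *Dynlt1* and from 0.0375 to 0.42 for *Rnaset2*. A single remaining library was then assumed to vary like the other group. With a prior count of 2, *Tmem181c-ps* was at 3.31.

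The number of genes called was 19, against 27 with DESeq2, 6 where each library needed 10 counts or more, 11 with chromosomes X and Y removed, and from 46 (without KI3) to 71 (without WT3) with a library left out. The filter that asks for 10 counts in each library removes genes at 0 in 1 genotype, unlike the default filter, and the cause of the higher counts with 3 libraries was not tested. Calls in the neighbour and pathway lists numbered 0 under all of these. Per kb of exonic bases rather than of positions found in no other gene, the mean over the 4 libraries moved by more than its spread for 8 of the 9 copies. That spread is the SD over the 4 libraries and includes the difference between genotypes. For the remaining copy, *Tmem181c-ps*, it was 8.70 CPM per kb. Within genotypes *Tmem181c-ps* went from 16.4 ± 0.25 to 4.39 CPM per kb in cKI f/+ and from 1.39 ± 0.86 to 0.37 in WT libraries (SD, n = 2 each). No paired analysis was possible because cKI f/+ and WT samples have fewer than 2 replicate numbers in common. With 2 libraries per genotype, coding sequences shared between copies and sex tied to genotype, differences between single copies are uncertain.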
